A study of Mus musculus with 8 samples.

Results

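The NR4A family of nuclear receptors has 3 genes in the mouse, Nr4a1 (Nur77), Nr4a2 (Nurr1) and Nr4a3 (Nor1). All 3 were found by gene identifier among the 35275 genes of an RNA-seq experiment on myotubes, the multinucleated muscle cells that form in culture. Primary myogenic progenitor cells (MPCs), the precursors of muscle fibres, were taken from C57BL6/J mice and differentiated into these myotubes. They were given extracellular vesicles (EVs) of MPCs for 12 h or for 24 h, and control myotubes were given EVs prepared from growth medium for the same times. Vesicles were isolated with a polymer-based method, and total culture RNA was sequenced in bulk. Each of the 4 groups (MPC EV 12 h, control 12 h, MPC EV 24 h and control 24 h) had 2 libraries, 8 in all. No group went without vesicles, so higher values with MPC EVs and lower values with the medium preparation cannot be told apart. Whether partner libraries are separate cultures is not stated, and p-values here reflect library-to-library spread that may be only technical.

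NR4A proteins are called orphan receptors because they act without a known classical ligand, and their activity depends largely on how much of them is made. Their genes are immediate early genes, switched on rapidly by cAMP, calcium and growth factor signals, in part through the factor CREB bound to cAMP response elements (CREs) in their promoters. In rodent skeletal muscle they are induced by beta-adrenergic signals and exercise, and Nr4a1 and Nr4a3 promote genes of glucose and fatty acid use. The proteins bind DNA as monomers or homodimers, and Nr4a1 and Nr4a2 also pair with retinoid X receptors.

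Nr4a1 (ENSMUSG00000023034) lies on the forward strand of chromosome 15, from 101254269 to 101274795 in GRCm38. Nr4a2 (ENSMUSG00000026826) lies on the reverse strand of chromosome 2, from 57106830 to 57124003. Nr4a3 (ENSMUSG00000028341) lies on the forward strand of chromosome 4, from 48045153 to 48086447. No other annotated gene overlaps any of the 3, so the lack of strand in the libraries does not mix their reads with those of an antisense gene.

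The promoters are shown because they share a feature that expression values did not enter. The RefSeq promoter table (GRCm38.p6) holds, for each gene, 250 bases before to 50 after the start site. Each of the 3 NR4A windows holds 4 matches to the CRE half-site TGACG, counted on both strands. Of 32851 such windows in the table, 20.81% hold at least 1 half-site, and 76 windows (0.23%) hold at least 4. In the sequences below, written 5′ to 3′ on the strand of the gene, capitals mark the half-sites, and CGTCA is the half-site on the opposite strand. For Nr4a1 and Nr4a2 the 250 bases before the start are given. For Nr4a3, 152 of those bases are annotated as exon, so only the half-sites with 6 bases on each side are given.
Nr4a1, chr15:101266596-101266845, forward strand: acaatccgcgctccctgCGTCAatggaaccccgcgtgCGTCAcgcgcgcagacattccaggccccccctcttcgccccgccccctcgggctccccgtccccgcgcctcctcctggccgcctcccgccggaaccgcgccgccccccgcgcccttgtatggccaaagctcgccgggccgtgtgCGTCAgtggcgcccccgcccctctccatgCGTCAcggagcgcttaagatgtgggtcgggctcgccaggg
Nr4a2, chr2:57124004-57124253, reverse strand: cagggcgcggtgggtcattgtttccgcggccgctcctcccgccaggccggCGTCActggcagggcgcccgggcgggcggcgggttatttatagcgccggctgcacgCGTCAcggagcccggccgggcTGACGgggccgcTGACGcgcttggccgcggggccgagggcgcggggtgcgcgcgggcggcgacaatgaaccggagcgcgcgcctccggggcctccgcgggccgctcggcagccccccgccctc
Nr4a3, chr4:48045068-48045084, forward strand: ggagggTGACGtagcgt
Nr4a3, chr4:48045086-48045110, forward strand: ccatgtCGTCAcatTGACGtctcgc
Nr4a3, chr4:48045152-48045168, forward strand: cataaaTGACGtgccga

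The half-sites of Nr4a1 all read on the opposite strand, and lie between bases -233 and -36 relative to the start. Those of Nr4a2 lie between -200 and -107, 2 on each strand. Those of Nr4a3 lie between -231 and -143, 3 of them on the strand of the gene. The Nr4a1 stretch lies within an intron of a longer transcript of the gene that starts further upstream. No annotated transcript of Nr4a2 itself covers the Nr4a2 stretch, and transcripts of other genes over these stretches were not looked for. The GC content of the 250 bases was 74.4% for Nr4a1, 80.0% for Nr4a2 and 63.6% for Nr4a3, and the part of this base composition in the number of matches was not tested. On either strand, none of the 3 windows holds the full CRE TGACGTCA (in 1.79% of all windows) or the NR4A monomer element AAAGGTCA (1.51%). The AP-1 element TGANTCA (7.81%) and the CArG box (1.63%) also have no match in them. The MEF2 box (3.19%) has 1 match in the Nr4a2 window, from base -167 to -158, and none in the others. A match is a run of letters and not a shown binding site, and a missing match says nothing of binding elsewhere.

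**Figure D1:**
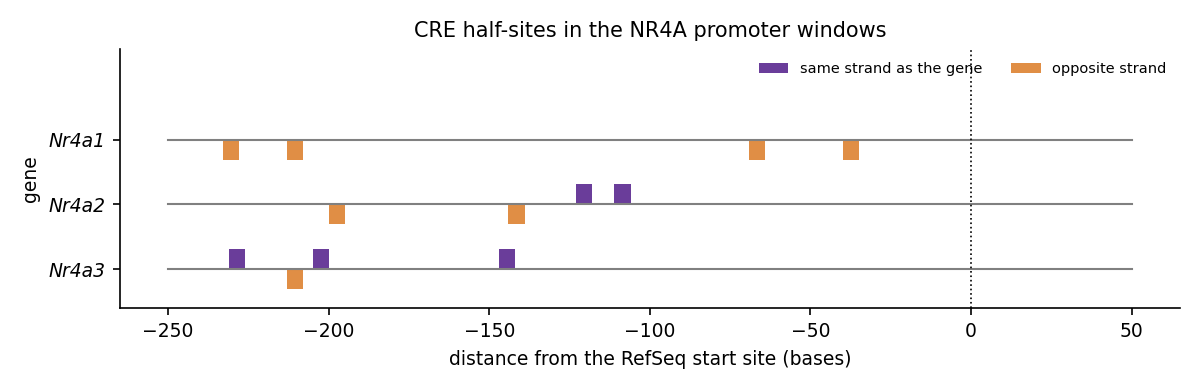
Positions of the CRE half-sites in the promoter windows of the 3 NR4A genes, in bases from the RefSeq start site (dotted line at 0). Boxes above a line are half-sites on the strand of the gene and boxes below it are on the opposite strand. Each gene has 4 half-sites, all before the start.

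Depth was 16324184 to 20187736 fragments per library. Across genes, log2 values of partner libraries correlated at 0.992 to 0.996, and those of the control 12 h pair at 0.947. In that pair, replicate 2 stood apart, with mitochondrially encoded transcripts at 1.56% of its summed values against 2.09% to 4.81% in the other 7 libraries. For the members and for the counts of the gene lists, values without it are given where a call or a count changed. The exception is the 24 h count of the glucose and glycogen genes, which also changed. The cells carried the 10 myotube markers listed, with sums of 14730 and 14230 FPKM in MPC EV 12 h libraries, against 12570 and 14430 in control 12 h libraries. At 24 h the sums were 12800 and 11630 FPKM in MPC EV libraries, against 9119 and 9463 in control libraries. Of the 9 markers tested, 4 rose at each time and none fell, among them the embryonic myosin gene Myh3. Over all 10981 genes tested, 4.36% were called higher and 14.3% lower at 12 h, and 2.61% higher and 0.956% lower at 24 h. List counts from the fit with all libraries and no added scaling stand against these shares. Under other settings, or with a library left out, calls over all genes changed too. At 12 h median-ratio scaling called 736 genes higher and 548 lower, and quantile normalization 506 and 747. The GC and length correction called 408 and 323, and the fit with no added scaling 479 and 1566. Other list counts, as with a library left out, have no share beside them and are not to be read as gains of a list. The 5 endothelial markers summed to 0.171 to 0.507 FPKM in every library, and the 6 macrophage markers to 1.11 to 2.82 FPKM, with Ptprc, Adgre1 and Csf1r of that list under 0.1 FPKM throughout. Fibroblast markers summed to 13.0 and 17.1 FPKM with MPC EVs at 12 h, against 22.9 and 24.8 in controls, and to 19.0 and 17.8 at 24 h, against 29.5 and 31.2. Lum and Tcf21 of that list were under 0.1 FPKM everywhere. Of 7 progenitor markers tested, Vcam1 fell at 12 h, and Cd34 and Sdc4 rose at 24 h. Of 3 pericyte and smooth muscle markers tested, Tagln fell at 12 h, and that list summed to 766 to 2004 FPKM over the libraries. The part of these marker shifts in the NR4A results was not tested. In bulk RNA, fewer cells of a type and less RNA per cell cannot be told apart.

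Levels are given in FPKM, which scales fragments to gene length and to library total, so that genes can be set side by side. Nr4a1 and Nr4a2 were expressed at a similar low level, with means over the 8 libraries of 4.22 and 3.58 FPKM, and Nr4a3 was far lower at 0.265 FPKM. All 3 were higher in myotubes given MPC EVs at both times, and for each gene every MPC EV library lay above every control library. Of 15048 genes averaging 0.1 FPKM or more, 3.97% showed the same separation of 4 libraries above 4. Within single times, both MPC EV libraries lay above both control libraries for 18.7% of these genes at 12 h and for 22.7% at 24 h.

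**Figure D2:**
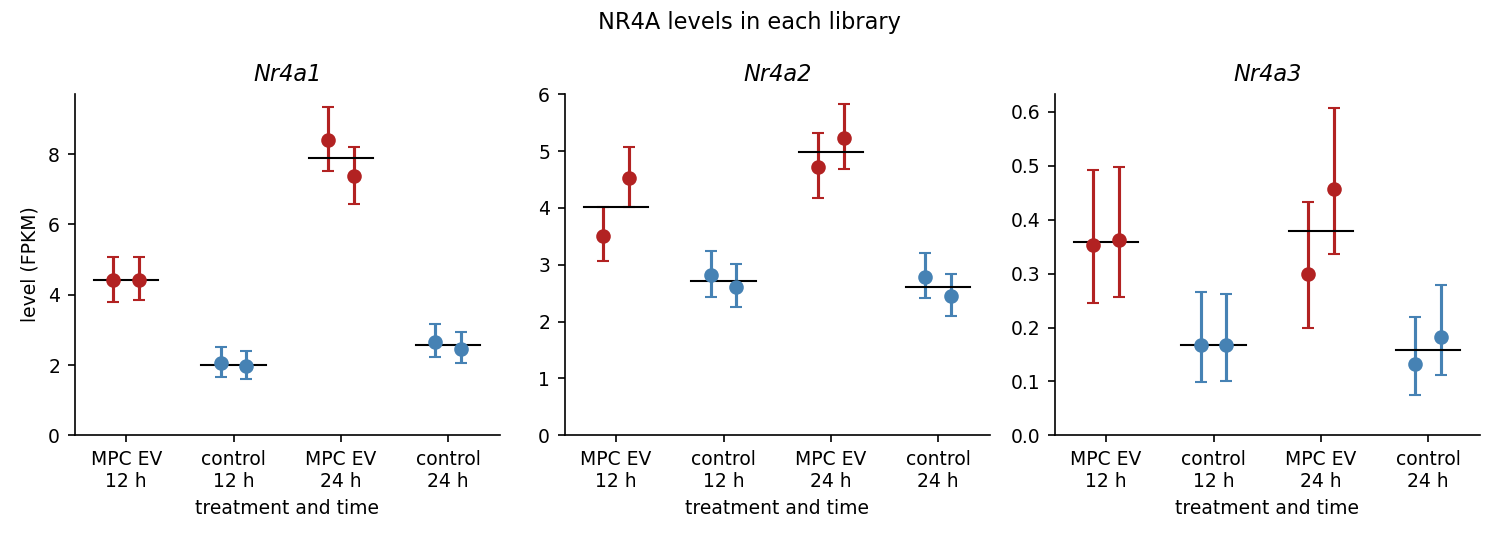
Level of each NR4A gene (FPKM, linear axes of different height) in each library by treatment and time, with MPC EV libraries in red and control libraries in blue. Points are single libraries, vertical bars are exact 95% Poisson intervals of the fragment count, and horizontal lines are group means. In every panel the 4 MPC EV points lie above the 4 control points.

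Nr4a1, the member most studied in muscle, had 4.41 and 4.43 FPKM in the 2 MPC EV 12 h libraries, from 189 and 201 fragments. The control 12 h libraries had 2.05 and 1.98 FPKM, from 95 and 97 fragments. The partners were nearly equal in both groups, and the groups were well apart. Its log2 fold change at 12 h was 0.97 ± 0.10 (SE, adjusted p = 0.00558, limma on log2(FPKM + 0.5) with Benjamini-Hochberg adjustment), a 1.96-fold difference on that scale. In a fit to the 12 h libraries alone the call was lost (adjusted p = 0.0922). Of the 10981 genes tested, 4.36% were called higher at 12 h, and Nr4a1 ranked 512 among all 10981 by the size of its log2 fold change. This scale understates changes of low genes, and on the fragment counts themselves (voom in limma) the fold was 2.19.

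At 24 h the difference between the groups was larger for Nr4a1 in these libraries. The MPC EV libraries had 8.39 and 7.37 FPKM, from 339 and 328 fragments, against 2.67 and 2.46 FPKM in the control libraries, from 130 and 123 fragments. Group means were 7.88 ± 0.723 FPKM with MPC EVs and 2.56 ± 0.143 FPKM in controls (SD, n = 2 libraries each). The lowest MPC EV library was thus far above the highest control library. The log2 fold change was 1.45 ± 0.10 (adjusted p = 0.00275, limma), with a 95% interval of 1.20 to 1.70, in a comparison where 2.61% of tested genes were called higher. By the size of its rise Nr4a1 ranked 26 among the 10981 genes. On fragment counts the fold was 3.06.

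Nr4a1 also differed between times. In MPC EV myotubes its level was higher at 24 h than at 12 h by 0.77 ± 0.10 on the log2 scale (adjusted p = 0.00635, limma), where 12.9% of tested genes were called higher. That call was lost without MPC EV 12 h replicate 1 (adjusted p = 0.0513) or MPC EV 24 h replicate 1 (adjusted p = 0.0569), with differences of 0.76 and 0.68. In control myotubes the 24 h libraries also lay above the 12 h libraries, but the difference of 0.29 ± 0.10 did not pass (adjusted p = 0.110), where 7.54% of genes were called higher. The time differences share libraries with the MPC EV effects and are not independent of them. The MPC EV effect on Nr4a1 at 24 h exceeded that at 12 h by 0.48 ± 0.15, with a 95% interval of 0.13 to 0.83. This difference had an unadjusted p of 0.0157 and did not pass over all genes (adjusted p = 0.190, limma). Of the 10981 genes, 0 (0%) passed that test in limma and 0 with voom, while 2014 (18.3%) had an unadjusted p under 0.05. An effect that grew with time is therefore not shown for Nr4a1 by this test.

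Nr4a2, best known for its role in dopamine neurons, had smaller fold changes than Nr4a1 at both times. At 12 h it had 3.51 and 4.52 FPKM with MPC EVs, from 217 and 296 fragments, against 2.81 and 2.61 FPKM in controls, from 188 and 185 fragments. The MPC EV partners differed from each other by more than the lower of them differed from the controls. The log2 fold change of 0.48 ± 0.14 did not pass (adjusted p = 0.0596, limma), with a 95% interval of 0.14 to 0.83. It passed with median-ratio scaling (0.60, adjusted p = 0.0411, limma), where 736 of 10981 genes were called higher, against 479 without that scaling. It also passed without control 12 h replicate 1 (0.53), which leaves 1 library in that group. Of all libraries left out, that one gave the most calls over all genes.

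At 24 h Nr4a2 had 4.72 and 5.24 FPKM with MPC EVs, from 275 and 336 fragments, against 2.79 and 2.44 FPKM in controls, from 196 and 176 fragments. Here the groups were further apart than the partners within them. The log2 fold change was 0.82 ± 0.14 (adjusted p = 0.0375, limma), and the fold on fragment counts was 1.91. This call rested on each library of that time. Without MPC EV 24 h replicate 1 or 2 the adjusted p was 0.209 or 0.229, and without control 24 h replicate 1 or 2 it was 0.198 or 0.267, with log2 fold changes of 0.74 to 0.89. It was also lost without MPC EV 12 h replicate 1 or 2 (adjusted p up to 0.0510) and with no filter on low values (0.0836). Nr4a2 did not pass between times, with differences of 24 h over 12 h of 0.29 ± 0.14 in MPC EV myotubes (adjusted p = 0.214) and -0.046 ± 0.14 in control myotubes (adjusted p = 0.841). Its MPC EV effects at the 2 times differed by 0.33 ± 0.20 (adjusted p = 0.398, 95% interval -0.15 to 0.82).

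Nr4a3 was near the lower limit of what this depth can measure, with 15 to 47 fragments per library. At 12 h it had 0.353 and 0.362 FPKM with MPC EVs, from 35 and 38 fragments, against 0.168 and 0.167 FPKM in controls, from 18 and 19 fragments. At 24 h it had 0.300 and 0.457 FPKM with MPC EVs, from 28 and 47 fragments, against 0.133 and 0.182 FPKM in controls, from 15 and 21 fragments. The libraries did not overlap between treatments at either time, but the 95% counting intervals of single libraries did: MPC EV 12 h replicate 1 reached down to 0.246 FPKM and control 12 h replicate 1 up to 0.266 FPKM. These intervals cover counting error only. Reads were counted without molecular identifiers, so repeated copies of a fragment may enter the counts.

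With a mean under 1 FPKM, Nr4a3 was left out of the test above and was tested among those 15048 genes averaging 0.1 FPKM or more. There its log2 fold changes were 0.36 ± 0.14 at 12 h (adjusted p = 0.131) and 0.41 ± 0.14 at 24 h (adjusted p = 0.250). The added 0.5 is larger than the level itself, so these values understate the change. On fragment counts (voom) the folds were 2.11 at 12 h (adjusted p = 0.0793) and 2.36 at 24 h (adjusted p = 0.147), in size between those of Nr4a2 and Nr4a1. Neither time passed in either fit. The shares of genes called higher were 3.28% and 1.68% on the FPKM scale, and 3.38% and 1.79% on fragment counts, at 12 h and 24 h. The level of Nr4a3 differed between 24 h and 12 h by 0.028 in MPC EV myotubes and -0.023 in control myotubes on the log2(FPKM + 0.5) scale (adjusted p = 0.921 and 0.934).

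With the effects at both times averaged in the same fit, a test added after the data were seen, Nr4a1 and Nr4a2 passed. The averaged log2 fold change was 1.21 ± 0.07 for Nr4a1 (adjusted p = 0.000612, limma) and 0.65 ± 0.10 for Nr4a2 (adjusted p = 0.0103), where 5.61% of genes were called higher. The Nr4a2 call was lost without MPC EV 24 h replicate 2 or control 24 h replicate 2 (adjusted p = 0.0531 and 0.0543). Nr4a3 had 0.39 ± 0.10 among the genes with at least 0.1 FPKM and did not pass (adjusted p = 0.0542, with 4.46% of genes called higher). On fragment counts it did, with a fold of 2.23 (adjusted p = 0.0277, with 4.55% called higher). Leaving out control 12 h replicate 2 left the averaged effects at 1.20, 0.63 and 0.39 for Nr4a1, Nr4a2 and Nr4a3. An exact two-sided permutation test of each gene over the 36 arrangements of libraries within times gave p = 0.0556 for each of the 3, the smallest it can give.

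The share of each member in the family's sum also differed between treatments. Summed over the family, levels were 8.28 and 9.32 FPKM with MPC EVs at 12 h, against 5.03 and 4.75 FPKM in controls. At 24 h the sums were 13.4 and 13.1 FPKM with MPC EVs, against 5.59 and 5.09 FPKM in controls. Nr4a1 made up 53.3% and 47.6% of the sum in MPC EV 12 h libraries, against 40.7% and 41.5% in control 12 h libraries. At 24 h its share was 62.6% and 56.4% with MPC EVs, against 47.7% and 48.4% in controls. At both times the MPC EV libraries had the higher Nr4a1 share, with no overlap between treatments within a time. Across times they overlapped, as MPC EV 12 h replicate 2, at 47.6%, lay below both control 24 h libraries. These shares follow from the levels above and are given without a test.

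The order of levels within a library followed the same shift. Nr4a1 was above Nr4a2 in both MPC EV 24 h libraries, at 1.78 and 1.41 times its level. It was below Nr4a2 in both control 12 h libraries, at 0.729 and 0.756 times. In the MPC EV 12 h libraries (1.26 and 0.979 times) and the control 24 h libraries (0.957 and 1.01 times) the order differed between partners. Nr4a3 was the lowest of the 3 in every library, at 2.2% to 4.3% of the sum.

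**Figure D3:**
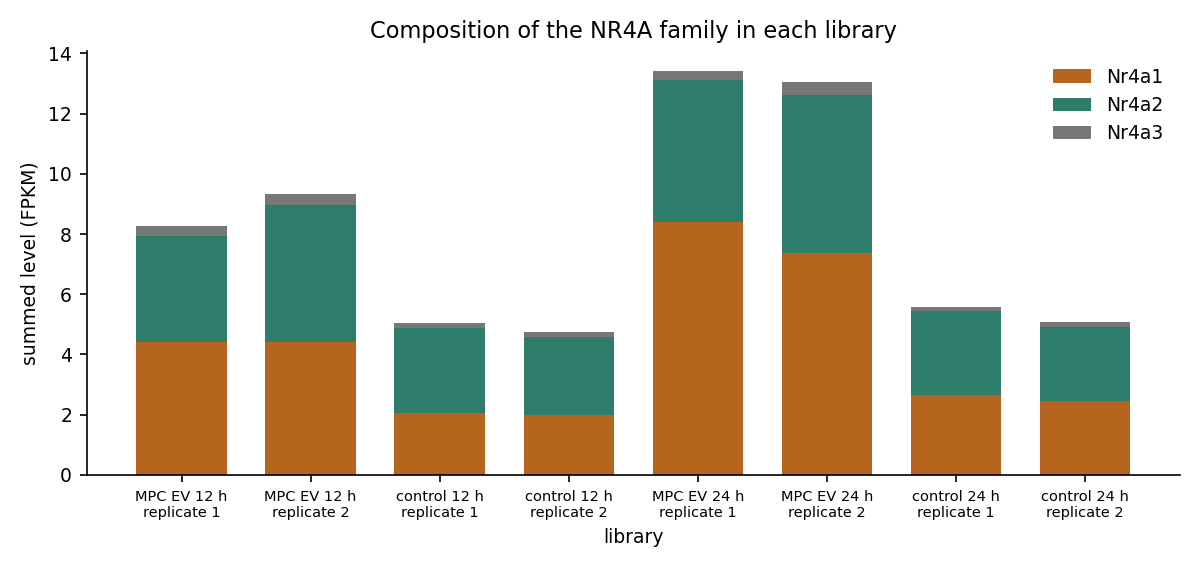
Summed level of the NR4A family in each library (FPKM), split into Nr4a1 (brown), Nr4a2 (green) and Nr4a3 (grey). The sum is 13.4 and 13.1 FPKM in the MPC EV 24 h libraries and 5.59 and 5.09 FPKM in the control 24 h libraries, and Nr4a1 takes the largest part of the MPC EV 24 h bars.

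Among the other nuclear receptors of the mouse, the counts of calls were near the shares of all genes. Of 45 receptors outside the family, 20 averaged 1 FPKM or more and were tested. At 12 h 0 were higher and 2 lower (limma), against 4.36% higher and 14.3% lower of all genes. At 24 h 0 were called in either direction, against 2.61% higher and 0.956% lower of all genes. Their median log2 fold change was -0.057 at 12 h, against -0.12 for all genes tested, and 0.001 at 24 h, against -0.028. The receptors called lower at 12 h were the retinoic acid receptor Rarg, at 4.83 FPKM with MPC EVs and 7.31 FPKM in controls, and the retinoid X receptor Rxrb, at 21.5 and 28.7 FPKM. Neither was called after median-ratio scaling, after quantile normalization or with a correction for GC content and length. The same settings called Nr2c2 and Pparg, Esrrg, and Esrrg and Thra higher at 12 h, in that order. Rarg was not called without control 12 h replicate 2 (adjusted p = 0.0703). Without that library, Esrrg, Pparg and Thra were called higher at 12 h and Esrra at 24 h, and only Rxrb lower, all named here after their values were seen. At 12 h the glucocorticoid receptor Nr3c1 and the estrogen-related receptor Esrrg had larger log2 fold changes than Nr4a1, at 1.18 ± 0.54 and 1.12 ± 0.31, and did not pass (adjusted p = 0.160 and 0.0535). Both were lowest in control 12 h replicate 2. Among these 20 receptors the orphan receptor Nr2f1 came nearest to Nr4a2 at 24 h, with 0.63 ± 0.22, and did not pass (adjusted p = 0.254). Of the receptors under 1 FPKM, 10 could be tested with the filter used for Nr4a3, a test added after the data were seen. Of these, 1 was called, Esrrb, at 12 h only. Of all genes with that filter, 3.28% were called higher at 12 h and 1.68% at 24 h. Esrrb, an estrogen-related receptor, had 1.49 and 1.05 FPKM with MPC EVs at 12 h, against 0.422 and 0.656 FPKM in controls, and 0.769 and 0.698 FPKM at 24 h, against 0.224 and 0.230 FPKM. Its 4 MPC EV libraries lay above its 4 control libraries, as for the NR4A genes and for 3.97% of all genes with that filter. Its log2 fold changes were 0.77 ± 0.18 at 12 h (adjusted p = 0.0420, limma) and 0.76 ± 0.18 at 24 h (adjusted p = 0.104).

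**Figure D4:**
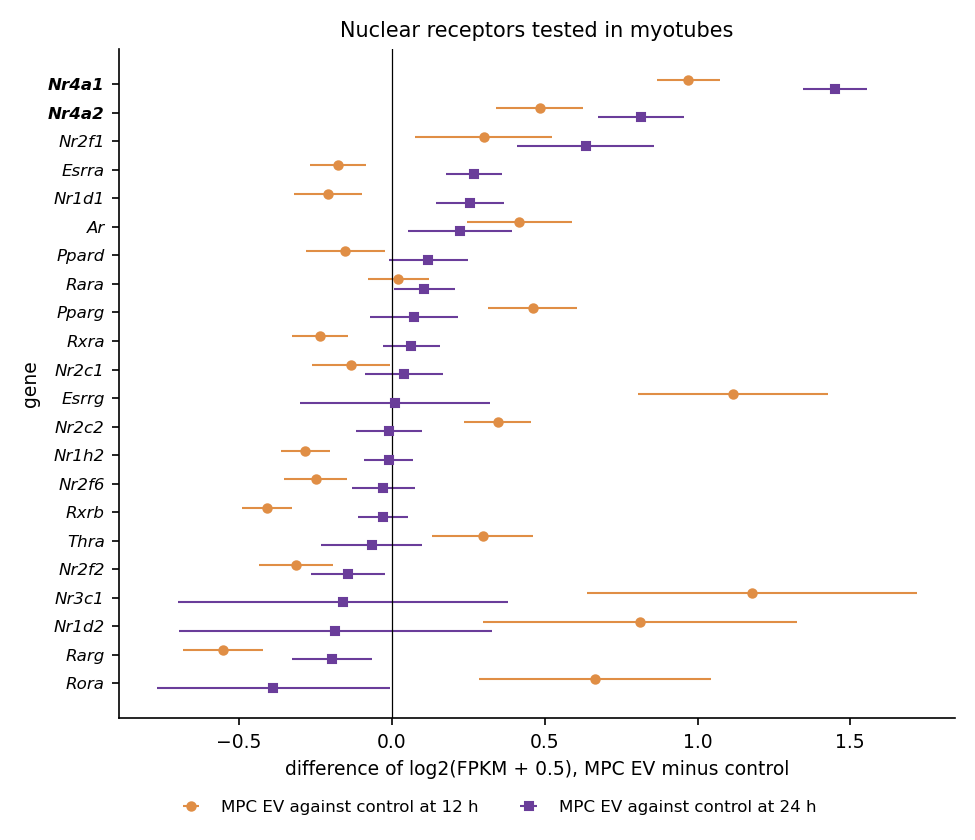
Difference of log2(FPKM + 0.5) between MPC EV and control myotubes for Nr4a1, Nr4a2 (bold) and the 20 other nuclear receptors averaging 1 FPKM or more, at 12 h (orange circles) and 24 h (purple squares). Bars are standard errors from the limma fit, and genes are ordered by the 24 h difference. Nr4a1 at 1.45 and Nr4a2 at 0.82 head the 24 h order, above Nr2f1 at 0.63, while at 12 h Nr3c1 and Esrrg lie furthest right with wide errors.

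Rxra and Rxrb lay above every NR4A gene in each library. Rxra, a dimer partner of Nr4a1 and Nr4a2, averaged 9.62 FPKM with MPC EVs and 11.4 FPKM in controls at 12 h, and 11.3 and 10.8 FPKM at 24 h. It did not pass at either time (adjusted p = 0.118 and 0.909), and Rxrb at 24 h had a log2 fold change of -0.029 (adjusted p = 0.957). Rxrg was under the 1 FPKM limit of that test, at 0.821 FPKM or less in every library. With the filter used for Nr4a3 it had 0.08 at 12 h and 0.26 at 24 h and did not pass (adjusted p = 0.85 and 0.82, limma). Of 13 coactivators and corepressors of nuclear receptors, 2 were higher and 1 lower at 12 h, against 4.36% higher and 14.3% lower of all genes. At 24 h 0 were called, against 2.61% higher and 0.956% lower of all genes. Ppargc1a was called higher at 24 h without control 12 h replicate 2. The coactivator Ppargc1a, a regulator of mitochondrial genes, averaged 1.41 FPKM with MPC EVs and 0.448 FPKM in controls at 12 h (log2 fold change 1.01 ± 0.16, adjusted p = 0.0143). That call was lost after quantile normalization (adjusted p = 0.0578) and with the GC and length correction (0.104). The corepressor Ncor1 had 0.42 ± 0.11 (adjusted p = 0.0447), a call lost without control 12 h replicate 2 (adjusted p = 0.0509) and with the GC and length correction (0.184). Trim28, which represses genes through chromatin, had -0.36 ± 0.07 (adjusted p = 0.0233), a call lost under all 3 scalings.

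Genes of cAMP signalling, one of the inputs to NR4A promoters, had a few members called. Of 24 tested, 3 were higher and 1 lower at 12 h, against 4.36% higher and 14.3% lower of all genes. At 24 h 3 were higher and 0 lower, against 2.61% and 0.956% of all genes. The list's medians were 0.026 and 0.064, against -0.12 and -0.028 for all genes. Without control 12 h replicate 2 the counts were 2 higher and 1 lower at 12 h and 5 higher at 24 h, and median-ratio scaling gave 5 higher at 12 h. Adora2b, an adenosine receptor that raises cAMP, averaged 5.88 FPKM with MPC EVs and 2.88 FPKM in controls at 24 h (0.91 ± 0.10, adjusted p = 0.00912), and had 0.45 ± 0.10 at 12 h. Prkaca, the catalytic subunit of protein kinase A, rose by 0.36 ± 0.08 at 12 h and 0.52 ± 0.08 at 24 h (adjusted p = 0.0354 and 0.0316, limma). Prkaca was called in 11 of 21 alternative settings at 12 h and in 13 of 21 at 24 h. Adora2a, another adenosine receptor, which was under 1 FPKM, was called lower at 12 h with the filter used for Nr4a3 (-0.84 ± 0.16, adjusted p = 0.0267). Gnas, the stimulatory G protein subunit, had 0.60 ± 0.15 at 12 h (adjusted p = 0.0405, limma), and was called in 12 of 21 alternative settings. The phosphodiesterases, which break cAMP down, went both ways: Pde4d had -0.46 ± 0.12 at 12 h (adjusted p = 0.0446) and Pde4b 0.64 ± 0.11 at 24 h (adjusted p = 0.0410). Without control 12 h replicate 2, Adora2b and Pde4d were not called at 12 h (adjusted p = 0.0629 and 0.118). Pde4d was called under none of the 3 scalings, and quantile normalization ended the calls of Adora2b at 12 h and Pde4b at 24 h (adjusted p = 0.0939 and 0.111), the GC and length correction also that of Pde4b (0.124). Of 15 known CREB target genes outside the family, 1 was higher (Ppargc1a) and 1 lower (Pde4d) at 12 h, and 1 was higher (Pde4b) at 24 h, against the shares of all genes given above. Without control 12 h replicate 2, 3 were higher at 12 h (Areg, Dusp1 and Ppargc1a), 1 lower (Gem) and 2 higher at 24 h, while quantile normalization left 0 called at either time. The median of that list was 0.003 at 12 h and -0.016 at 24 h. With the filter used for Nr4a3, its member Fosb was called higher at 12 h (0.60 ± 0.13, adjusted p = 0.0333, limma) and not at 24 h. Rgs2, also under 1 FPKM, was called at neither time.

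MEF2 factors, held in check by class IIa histone deacetylases, also act on the Nr4a1 promoter in other cell types. Of 7 genes tested, Mef2c was called higher at 12 h and Mef2d at 24 h, and none was lower. Of all genes, 4.36% were higher at 12 h and 2.61% at 24 h. Leaving out control 12 h replicate 2 gave 3 higher at 12 h (Mef2a, Mef2c and Mef2d) and 2 at 24 h. Mef2c had 99.3 and 93.3 FPKM with MPC EVs at 12 h, against 42.2 and 12.0 FPKM in controls, with the lowest value in control 12 h replicate 2. Its log2 fold change was 2.07 ± 0.51, and 1.18 when that library was left out (adjusted p = 0.0396 and 0.000827). Mef2d had 0.41 ± 0.08 at 24 h (adjusted p = 0.0498, limma, and 0.0573 with the GC and length correction). It was called at 24 h in 7 of 21 alternative settings.

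Other immediate early and ERK-responsive genes were called in both directions. Of 27 tested, 4 were higher and 4 lower at 12 h, and 5 were higher and 2 lower at 24 h, with medians of 0.16 and 0.05. Of all genes, 4.36% were higher at 12 h, and 2.61% were higher and 0.956% lower at 24 h. The lower calls at 12 h were near the 14.3% of all genes. The 3 scalings gave 3 to 6 higher and 1 lower at 12 h. Without control 12 h replicate 2 the counts were 5 higher and 2 lower at 12 h, and 8 higher and 2 lower at 24 h. Over all genes, the number called higher also rose at both times without that library. The phosphatase Dusp6, a feedback inhibitor of ERK, averaged 16.3 FPKM with MPC EVs and 5.93 FPKM in controls at 12 h, and 16.2 and 5.95 FPKM at 24 h (log2 fold changes 1.39 and 1.37, adjusted p = 0.00245 and 0.00275). A second such phosphatase, Dusp5, rose by 0.81 ± 0.11 at 12 h and by 1.27 ± 0.11 at 24 h (adjusted p = 0.00909 and 0.00384). The ERK pathway inhibitor Spry4 rose by 0.68 ± 0.17 at 12 h and 1.06 ± 0.17 at 24 h (adjusted p = 0.0404 and 0.0300), and its 12 h call was lost without control 12 h replicate 2 (adjusted p = 0.0603), after quantile normalization (0.0811) and with the GC and length correction (0.0651). At 24 h the FOS family member Fosl1 and the stress-induced Ier3 rose by 0.95 ± 0.10 and 0.88 ± 0.11.

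Fos and Egr1, the classical immediate early genes, did not pass. Fos had 1.51 and 1.16 FPKM with MPC EVs at 12 h, against 0.962 and 1.22 FPKM in controls, and 1.57 and 1.45 FPKM at 24 h, against 0.891 and 1.43 FPKM. Egr1 averaged 9.91 FPKM with MPC EVs and 10.7 FPKM in controls at 12 h, and 7.54 and 8.04 FPKM at 24 h. Their adjusted p-values were 0.471 and 0.674 for Fos, and 0.540 and 0.926 for Egr1, at 12 h and 24 h. Fosb, a FOS family member under 1 FPKM, had 0.616 and 0.538 FPKM with MPC EVs at 12 h, against 0.242 and 0.175 FPKM in controls, and 0.604 and 0.608 FPKM at 24 h, against 0.311 and 0.264 FPKM. Its MPC EV libraries all lay above its controls, as for 3.97% of all genes averaging 0.1 FPKM or more. With the filter used for Nr4a3 it passed at 12 h (0.60 ± 0.13, adjusted p = 0.0333, limma) and not at 24 h (0.49 ± 0.13, adjusted p = 0.135). Egr2, also averaging under 1 FPKM, went the other way. Its highest MPC EV library had 0.717 FPKM and its lowest control 0.9175 FPKM. It passed at neither single time (adjusted p = 0.128 and 0.08655, limma). Over both times Egr2 was called lower (-0.64, adjusted p = 0.0275) and Fosb higher (0.55, adjusted p = 0.0146). Egr3, a related zinc finger factor, was called higher at 12 h (0.94 ± 0.25, adjusted p = 0.0466), which was lost without control 12 h replicate 2 (adjusted p = 0.0520), after quantile normalization (0.0742) and with the GC and length correction (0.0720). Junb, a partner of FOS proteins, was lower and averaged 29.8 FPKM with MPC EVs and 84.8 FPKM in controls at 12 h (-1.51 ± 0.14, adjusted p = 0.00372). At 24 h it averaged 18.6 and 30.6 FPKM (-0.70 ± 0.14, adjusted p = 0.0498), a call lost with the correction for GC content and length (adjusted p = 0.181). The zinc finger gene Klf4 fell by 0.51 at 24 h. Klf10, Myc and Ier2 were called lower at 12 h, at -0.86, -0.47 and -0.33, and none of these 3 calls held under any of the 3 scalings, with Ier2 at 0.10 with the GC and length correction.

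**Figure D5:**
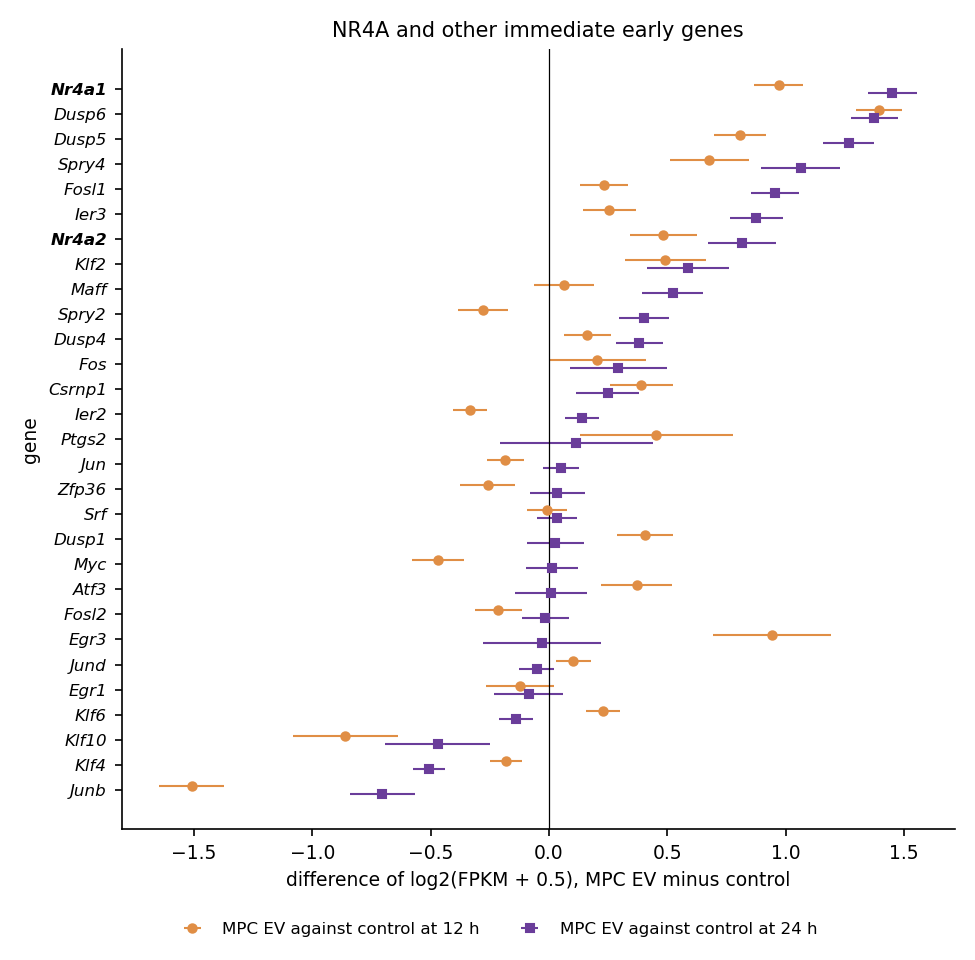
Difference of log2(FPKM + 0.5) between MPC EV and control myotubes for Nr4a1, Nr4a2 (bold) and 27 other immediate early and ERK-responsive genes, at 12 h (orange circles) and 24 h (purple squares), with standard errors from the limma fit as bars. Nr4a1 at 1.45 and Dusp6 at 1.37 head the 24 h order, Fos at 0.29 and Egr1 at -0.086 lie nearer to 0, and Junb at -0.70 lies lowest.

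Whether NR4A receptors acted on the metabolic genes below was not tested, and 4 of 9 myotube markers also rose at each time. Of the muscle genes of the kind that NR4A receptors promote, those of glucose and glycogen use had 2 of 15 tested members higher at 12 h and 4 at 24 h, and none lower, against 4.36% and 2.61% of all genes higher. At 12 h these were Slc2a4, the insulin-responsive glucose transporter, at 0.91 ± 0.25 (adjusted p = 0.0497, and 0.169 after quantile normalization), and the muscle glycogen phosphorylase Pygm at 0.43 ± 0.10 (adjusted p = 0.0353). At 24 h these were Pfkm, Pygm, Aldoa and Ldha, all enzymes of glycogen breakdown or glycolysis. They had 0.62, 0.60, 0.52 and 0.31 (adjusted p = 0.0325, 0.0329, 0.0359 and 0.0359, limma). Ldha was not called with the GC and length correction (adjusted p = 0.0573). Pfkm, Pygm and Aldoa were each called at 24 h in 13 of 21 alternative settings, and Ldha in 11. The 12 h count was 6 without control 12 h replicate 2, and it was 8 with median-ratio scaling, 7 after quantile normalization and 5 with the correction for GC content and length. The list's median was 0.22 at 12 h and 0.16 at 24 h, against -0.12 and -0.028 for all genes. Of 12 genes of fatty acid use and energy sensing, 2 were higher at 12 h (Ppargc1a and Prkag3) and 1 lower (Pdk4, where 14.3% of all genes were lower), and Prkag3 was higher at 24 h. Without control 12 h replicate 2 the counts were 4 higher and 1 lower at 12 h and 2 higher at 24 h. Cd36, a fatty acid transporter under 1 FPKM, passed at 12 h with the filter used for Nr4a3 (1.23 ± 0.20, adjusted p = 0.0166) and not at 24 h (0.70 ± 0.20, adjusted p = 0.163). Prkag3, a muscle subunit of the AMP-activated kinase, averaged 29.1 FPKM with MPC EVs and 18.3 FPKM in controls at 12 h, and 14.2 and 9.42 FPKM at 24 h. Pdk4, which shifts fuel use from glucose to fat, averaged 13.1 FPKM with MPC EVs and 25.3 FPKM in controls at 12 h (-0.93 ± 0.08, adjusted p = 0.00332).

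The genes whose pattern over the 8 libraries was most like that of each member are given as a description. Likeness was Pearson's r of log2(FPKM + 0.5), and the libraries share treatments and times, so any gene with the same steps scores high. For Nr4a1 these were Klhl41 (r = 0.994), a kelch protein of the sarcomere, the thrombomodulin gene Thbd (0.989), the muscle small heat shock gene Hspb7 (0.987), the tetraspanin gene Cd53 (0.976) and Oxct1 (0.976), an enzyme of ketone body use. Thbd had 22.1 and 18.8 FPKM with MPC EVs at 24 h, against 4.89 and 5.12 FPKM in controls. For Nr4a2 they were the potassium channel gene Kcnn3 (0.985), the granzyme gene Gzmd (0.974), the opsin gene Opn3 (0.968), the hyaluronan receptor Cd44 (0.965) and the cell cycle inhibitor Cdkn2b (0.965). Gzmd has closely related copies, and its fragments may be shared with them. For Nr4a3 they were Mtmr10 (0.957), Kcnn3 (0.947), the interleukin 18 receptor subunit Il18rap (0.946), the neurofilament gene Nefm (0.945) and Nrbp2 (0.938). Kcnn3, on both lists, had 7.34 and 8.45 FPKM with MPC EVs at 24 h, against 4.02 and 4.08 FPKM in controls.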

How the data were processed

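RNA of myotubes was sequenced as non-stranded paired-end libraries, per the labels' protocols. The authors deposited FPKM values of all libraries in a single table. Tools named, per the submitters' processing notes, are HISAT2 and DESeq2 (version 2), with mm10 as the build. How reads were counted, and on which annotation, is not given in the sources used here. Because FPKM is relative to each library's total, a shift in a few abundant transcripts moves all other values.

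Each FPKM value was turned back into whole fragments through the library total and gene length that made all values whole. This held for 100% of 21406 genes above 0, within a tolerance of 0.001. Gene identifiers were matched to GENCODE vM21, which gave symbols for 34490 and none for 785.

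The 10981 genes averaging 1 FPKM or more were tested with limma 3.58.1 (R 4.3.3) on log2(FPKM + 0.5): 1 mean per group, eBayes with trend, two-sided, Benjamini-Hochberg adjustment, threshold 0.05. All 8 libraries entered the fit, since 2 against 2 leave few degrees of freedom. Nr4a3 was tested with a filter of 0.1 FPKM. The fit was tested on simulated data. Voom on recovered fragments, effects averaged over both times, the permutation test, the lists without control 12 h replicate 2 and the 0.1 FPKM filter for list genes were added after the data were seen. Other alternatives were pseudocounts, filters, scalings, a GC and length correction, the replicate number as a term, single-time fits and each library left out. Python 3.11.15 prepared tables and figures.

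The members and gene lists were chosen with earlier results of these data known. The text names the 3 members, up to 4 members of each list per comparison with the smallest adjusted p among those called, Fos, Egr1 and the retinoid X receptors, and the 5 genes most like each member. A few further genes, among them those called under 1 FPKM, are named after their values were seen.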

Additional observations from a re-analysis of the deposited data

How the results depend on the processing

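Nr4a1 was called higher at 12 h in 19 of 20 alternatives and at 24 h in 19 of 20, and in all 19 run for the average of both times. The exceptions were the fit to the 12 h libraries alone (0.97, adjusted p = 0.0922) and, at 24 h, the replicate number as a block (1.45, adjusted p = 0.0573). Nr4a2 at 24 h was called in 12 of 20 alternatives. With the replicate block it had the same log2 fold change of 0.82 with adjusted p = 0.158, and 0.65 with adjusted p = 0.0569 over both times, and no filter on low values gave 0.82 (adjusted p = 0.0836). At 12 h it passed with median-ratio scaling (0.60, adjusted p = 0.0411). Nr4a3 over both times passed with no filter (0.39, adjusted p = 0.0426), median-ratio scaling (0.41, adjusted p = 0.0473), no variance trend (0.39, adjusted p = 0.0339) and voom (1.16, adjusted p = 0.0277; 1.16, adjusted p = 0.0250, without control 12 h replicate 2). Its time effect in MPC EV myotubes was -0.015 with median-ratio scaling. Ier2 at 12 h was 0.10 after GC and length correction. No member has a mean of 5 FPKM, so that filter gave no value for them. In each case the cause was not tested.

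Leaving out 1 library at a time gave 0.68 to 0.85 for Nr4a1 with time in MPC EV myotubes. For Nr4a2 it gave 0.32 to 0.65 at 12 h, 0.74 to 0.89 at 24 h, 0.57 to 0.73 over both times and -0.13 to 0.034 with time in controls. For Nr4a3 it gave -0.078 to 0.18 for the difference of the effects, -0.077 to 0.030 with time in controls and -0.10 to 0.16 with time in MPC EV myotubes. Where a group is left with 1 library, that library is assumed to vary like the others.

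The number of genes called at 12 h was 2045, and 1284 with median-ratio scaling, 1253 after quantile normalization, 731 after GC and length correction, 323 with the replicate block and 11 with the 12 h libraries alone. At 24 h it was 392, and 225 with no filter, 258 after GC and length correction, 0 with the replicate block, 763 with the 24 h libraries alone and 1080 with voom without control 12 h replicate 2. For time in controls it was 1959, and 1116 with the block and 2949 with voom without that library. For time in MPC EV myotubes it was 2013, and 1188, 904 and 4198 after GC and length correction, with the block and with voom without that library. Over both times it was 1647, and 955 after GC and length correction and 724 with the block. For the difference of the effects it was 0, and 91 with voom without that library. With 1 library left out the counts ran from 212 to 5671 at 12 h, 27 to 958 at 24 h, 528 to 5022 over both times, 0 to 3668 for the difference of the effects, 525 to 4519 for time in controls and 446 to 4176 for time in MPC EV myotubes. The largest counts came without control 12 h replicate 1 in all 6 comparisons.

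At 12 h 23.4% of the calls were higher, against 57.3% with median-ratio scaling, 40.4% after quantile normalization and 55.8% with the GC and length correction. Over both times the share was 37.4%, against 62.2%, 50.7% and 59.2% in the same order, and with time in MPC EV myotubes 70.5%, against 49.3%, 55.7% and 47.1%. The median of all genes at 12 h was -0.12 and 0.01 with median-ratio scaling, so changes there are relative to that shift. Deviations of same-numbered libraries correlated at -0.012 at 12 h and 0.241 at 24 h across genes. With only 2 groups per time this neither shows nor excludes pairing, and the numbers were not used as pairs. At 15 to 47 fragments, depth limits what can be said of Nr4a3.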
